A study of Mus musculus and Rattus norvegicus with 53 samples.

Results

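Glycolysis and hypoxia-response genes were followed as a set of 38 named genes in sorted mouse Schwann cells (SCs) after sciatic nerve transection. The set was defined by gene symbol, and all 38 symbols were present among the 24016 genes of the mouse count files. It comprised 2 glucose transporters, 9 genes of the upper and 5 of the lower part of glycolysis, 2 enzymes that set the level of the glycolytic activator fructose 2,6-bisphosphate, 5 genes of pyruvate and lactate handling, 4 genes of the hypoxia-inducible factors (HIFs) and their hydroxylases, and 11 genes commonly induced by low oxygen.

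SCs were sorted by tdTomato fluorescence from male and female mice, 6 to 8 weeks old, carrying a Cre driver and a Rosa26 tdTomato reporter, so that every group shared the Cre and the reporter. Cells from uncut nerves (iSCs), from the stump distal to the cut (dSCs) and from the tissue bridging the gap (bSCs) were compared. In the pooled experiment, each library combined the tissue of 3 mice, with dSCs and bSCs taken at day 6, and each group held 4 libraries. In the single-nerve experiment, each library came from 1 nerve, with 5 libraries of iSCs and 3 per time point of dSCs from days 1, 2 and 4 and days 6, 8 and 10 and of bSCs from days 4, 6, 8 and 10. Cre marks a lineage rather than a state, so the sorted cells could include any tdTomato+ descendant of cells that once expressed Cre.

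Glycolysis converts glucose into pyruvate, which either enters mitochondria or is reduced to lactate by lactate dehydrogenase, a tetramer of LDHA and LDHB subunits. Under normal oxygen the prolyl hydroxylases of the EGLN family mark HIF alpha subunits for degradation. Under low oxygen HIF accumulates without any need for more of its own mRNA and raises transcription of glucose transporters, glycolytic enzymes, LDHA and genes such as Vegfa, Car9 and Adm. In nerve, SCs use glycolysis and export lactate through monocarboxylate transporters, a route held to feed axons.

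Pooled libraries held 11435463 to 22617054 counts on genes and single-nerve libraries 9240883 to 22426128. In the single-nerve experiment, 4 libraries stood apart by the share of counts on Rn45s, the 45S ribosomal RNA precursor (17.3 to 38.6%, against 0.444 to 6.47% in the other 31), and listed 10042 to 11138 genes against 11983 to 15815; they were iSC replicates 0 and 1, dSC day 1 replicate 1 and dSC day 2 replicate 0. All 5 iSC libraries were used, although the study kept fewer intact nerves. The dSC and bSC libraries of day 4 replicate 1 were close to identical in their counts (chi-square per degree of freedom 3.96, against 47.9 for the next closest of 595 pairs). Marker genes of other cells differed between groups as well. In the pooled libraries the summed level of 4 SC markers (Sox10, S100b, Erbb3 and Ngfr) overlapped between groups, at 547 to 977 CPM in iSCs, 798 to 2113 in dSCs and 512 to 1236 in bSCs, and that of 10 macrophage markers was 203 to 5583, 9865 to 16016 and 2388 to 7550, with none of the markers of either list at 0 in all libraries of a group. Of 4 erythroid markers, the haemoglobin genes (Hbb-b1, Hba-a1 and Hba-a2) were at 0 in every pooled library, and Alas2 was at 1.17 to 7.09 CPM in iSCs, 0 to 4.32 in dSCs and 0 in bSCs. The sum of 5 fibroblast markers was 2214 to 12347 CPM in iSCs, 12219 to 16579 in dSCs and 6962 to 15116 in bSCs. That of 5 mural cell markers was 205 to 1514, 69.2 to 162 and 103 to 650 CPM. For 7 genes induced by handling of cells, Fos and Egr1 among them, it was 1282 to 10359, 999 to 1560 and 743 to 2237 CPM. In the single nerves the SC marker sum was 112 to 348 CPM in iSCs, below every pooled iSC library. Its median in dSCs was 115 CPM at day 1 and 593 at day 2. At days 4, 6, 8 and 10 it was 819, 1412, 1513 and 1106. In bSCs the medians were 445, 765, 380 and 600 CPM at those days. Every dSC library from day 4 on lay above the iSC range, whereas dSCs of days 1 and 2 and bSCs of each day overlapped it. In a bulk library fewer cells of a type and less RNA per cell cannot be told apart, and the part of these differences in the results below was not tested.

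Of the 38 members, 36 passed the filter on low counts in the pooled experiment. Eno1 and Egln3 did not. Levels are given as CPM, a gene's count relative to all gene counts of its library, the libraries scaled by TMM, in the order of pools 1, 2, 4 and 5 for iSCs and of pools 1, 2, 3 and 5 for dSCs and bSCs. Differences are log2 fold changes with their standard errors from edgeR's quasi-likelihood test, with p-values adjusted over the 13751 genes tested and a call at 0.05. The labels number the pools of mice, so the p-values measure the spread between pools.

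At day 6, few members were called between dSCs and iSCs. Hif1a and Pgam1 rose and Ldhb, Ndrg1 and Aldoc fell, which made 5 of 36 members (13.9%), against 5.32% of all genes tested (2.63% higher and 2.69% lower). The median member had a log2 fold change of -0.24, against -0.02 over all genes. More members separated bSCs from iSCs. Gapdh, Pgk1, Pgam1 and Ldha rose and Slc2a1, Aldoc, Ldhb, Slc16a1, Bnip3, Ndrg1 and Adm fell, 11 of 36 (30.6%) against 14.7% of all genes (7.24% higher and 7.46% lower), and the median member was at -0.13 against -0.16. Between the injured regions, Pgk1 and Ldha were higher and Adm lower in bSCs than in dSCs, 3 of 36 (8.33%) against 5.43% of all genes (2.31% higher and 3.11% lower), with medians of -0.21 and -0.07. With the pool number as a block, the counts were 3, 7 and 2, against 2.09%, 7.04% and 1.72% of all genes. The dSC and bSC comparisons with iSCs share the same 4 iSC libraries.

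**Figure D1:**
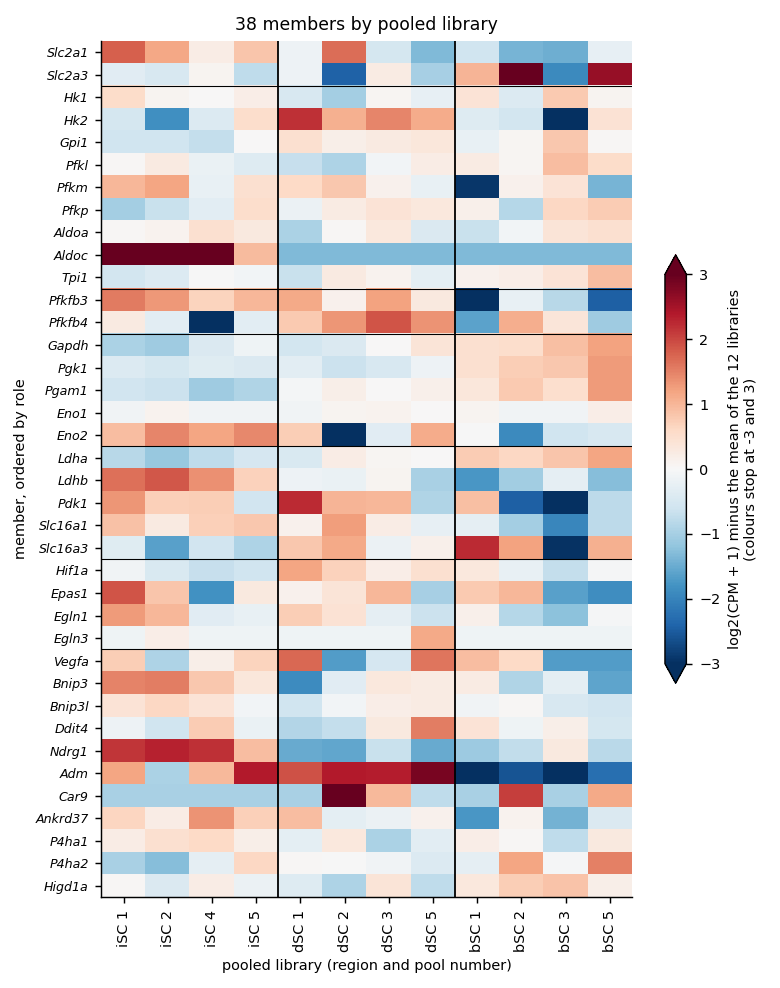
Level of the 38 members (rows, ordered by role) in the 12 pooled libraries (columns, by group and pool), as log2(CPM + 1) minus the member's mean over the libraries; colours stop at -3 and 3. Gapdh, Pgk1, Pgam1 and Ldha are highest in the 4 bSC libraries, and Ndrg1 and Ldhb are highest in the 4 iSC libraries.

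The libraries of the groups were also compared by overlap. Between dSCs and iSCs, 11 of 36 members had none (7 higher and 4 lower in dSCs), against 17% of all genes tested (7.56% and 9.41%). Between bSCs and iSCs the count was 15 (5 higher and 10 lower), against 25% (10.5% and 14.5%), and between bSCs and dSCs 8 (4 higher and 4 lower), against 15.4% (6.77% and 8.62%).

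Of the glucose transporters, Slc2a1 fell in bSCs. Slc2a1 (chr4:118781316-118809935 in mm9), which encodes the basal transporter GLUT1, was at 342, 220.3, 114 and 175 CPM in iSCs, 87.2, 311, 67.0 and 37.9 in dSCs and 63.9, 36.6, 34.8 and 81.3 in bSCs. Every bSC library was below every iSC library, whereas pool 2 of dSCs lay near the top of the iSC range. Slc2a1 fell by 1.97 ± 0.58 on the log2 scale in bSCs relative to iSCs (adjusted p = 0.0377), and its difference between dSCs and iSCs was -0.76 ± 0.57 (adjusted p = 0.619). The call in bSCs was lost with the pool number as a block (-1.89, adjusted p = 0.117) and without any 1 of 6 libraries (pools 1, 2 and 5 of iSCs and pools 1, 2 and 3 of bSCs), the adjusted p reaching 0.119. Slc2a3, the high-affinity transporter GLUT3, stayed under 6 CPM in all iSC and dSC libraries and ranged from 0.429 to 45.9 CPM in bSCs, with overlap between the groups and no call.

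Among the 9 upper glycolysis genes, Aldoc was called in each pooled comparison with iSCs. Aldoc, the aldolase isoform of brain, was at 18.8, 28.8, 21.8 and 3.87 CPM in pooled iSCs and had no count in any pooled dSC or bSC library. Its mean in iSCs was at least 79.9-fold above the level that 3 counts per library would give in dSCs and at least 71.1-fold above that in bSCs (adjusted p = 0.0172 and 0.00659). Both calls were lost with the pool number as a block (adjusted p = 0.205 and 0.114), and the call in dSCs also without pool 1, 2 or 4 of iSCs (highest adjusted p 0.0692). Aldoa, the main aldolase of muscle and most other tissues, ran at 716 to 980.2 CPM in iSCs, 364 to 869 in dSCs and 441 to 981 in bSCs. In the single nerves Aldoc was not tested and had counts in some libraries of iSCs, dSCs and bSCs. Where Aldoc had counts, the Aldoa to Aldoc ratio per kilobase of exon was 272 to 4360 in iSCs (3 libraries). It was 494 to 2528 in dSCs at day 1 (3 libraries) and 14.9 in 1 dSC library of day 4. In bSCs at day 8 it was 98.0 to 167 (2 libraries).

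Hk2, the inducible hexokinase, was at 10.2, 3.51, 11.1 and 22.6 CPM in iSCs, 72.9, 33.0, 43.7 and 33.8 in dSCs and 11.4, 10.2, 0.944 and 20.8 in bSCs. All 4 dSC libraries lay above all iSC and bSC libraries. The differences of dSCs from iSCs (1.95 ± 0.78, adjusted p = 0.206) and of bSCs from dSCs (-2.08 ± 0.78, adjusted p = 0.134) did not pass the threshold. Hk1, the constitutive hexokinase, was at 59.8 to 86.9, 28.5 to 61.4 and 44.6 to 104 CPM in the 3 groups. Per kilobase of exon, the Hk1 to Hk2 ratio was 2.13 to 12.6 in iSCs, 0.403 to 1.03 in dSCs and 2.11 to 77.0 in bSCs. Gpi1, glucose-6-phosphate isomerase, was higher in all dSC libraries (171 to 212 CPM) than in all iSC libraries (91.3 to 153), with a difference of 0.78 ± 0.26 that missed the threshold (adjusted p = 0.12). Tpi1, triosephosphate isomerase, was higher in all bSC libraries (235 to 405 CPM) than in all iSC libraries (146 to 212), at 0.69 ± 0.26 (adjusted p = 0.0952). The phosphofructokinase subunit genes Pfkl, Pfkm and Pfkp were between 2.69 and 165 CPM, overlapped between all groups and were not called. In the single nerves the median Hk1 to Hk2 ratio was 6.05 in iSCs. At days 4, 6, 8 and 10 it was 0.471, 1.19, 1.93 and 0.992 in dSCs and 0.535, 0.823, 3.68 and 7.19 in bSCs.

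Of the enzymes that make and remove fructose 2,6-bisphosphate, neither passed the test. Pfkfb3, whose product favours its synthesis, was at 39.8, 33.0, 20.9 and 26.5 CPM in iSCs, 29.3, 14, 30.8 and 15.9 in dSCs and 0.0448, 10.8, 6.78 and 1.54 in bSCs. All pooled bSC libraries were below all other pooled libraries, and the differences were -2.65 ± 1.00 from iSCs (adjusted p = 0.0929) and -2.23 ± 0.98 from dSCs (adjusted p = 0.204). Pfkfb4 was at 24.2 to 52.7 CPM in dSCs, above all iSC libraries (0.0756 to 16.6), with a difference of 1.96 ± 1.00 (adjusted p = 0.371). In the single nerves, where Pfkfb3 was not tested, its order between the injured regions varied by day. At day 6 it was at 16.6 to 23.2 CPM in bSCs, above dSCs (2.81 to 7.76). At day 8 it was at 1.68 to 8.22 CPM in bSCs, below dSCs (13.5 to 30.2). The regions overlapped at days 4 and 10.

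Of the 4 tested genes of the lower part of glycolysis, where ATP is made, Gapdh, Pgk1 and Pgam1 were called higher in bSCs than in iSCs (against 7.24% of all genes) and Pgk1 also higher than in dSCs (against 2.31%). The other, Eno2, lay lower. Gapdh, glyceraldehyde-3-phosphate dehydrogenase, was at 227, 209, 329 and 407 CPM in iSCs, 304, 329, 447 and 582 in dSCs and 619.9, 637, 827 and 1028 in bSCs. The bSC libraries lay above all others, while iSCs and dSCs overlapped. Gapdh rose by 1.41 ± 0.30 from iSCs to bSCs (adjusted p = 0.00677), and its difference between bSCs and dSCs was 0.91 ± 0.29 (adjusted p = 0.0873). Pgk1 (chrX:103382439-103399038), phosphoglycerate kinase, was at 138, 127, 141 and 135 CPM in iSCs, 147, 116, 131 and 165 in dSCs and 257, 305, 322 and 444 in bSCs. It differed by 0.05 ± 0.21 between dSCs and iSCs (adjusted p = 0.961) and rose in bSCs against both, by 1.30 ± 0.22 (adjusted p = 0.0017) and 1.25 ± 0.22 (adjusted p = 0.00824). Neither Pgk1 call was lost when any 1 library was left out or with the block.

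Pgam1, phosphoglycerate mutase, was ordered by group. Its levels were 166, 158, 117 and 132 CPM in iSCs, 240.3, 279, 251 and 278 in dSCs and 316, 428, 356 and 607 in bSCs, with no overlap between any groups. It rose by 1.57 ± 0.24 in bSCs (adjusted p = 0.000944) and by 0.87 ± 0.23 in dSCs (adjusted p = 0.0475) relative to iSCs, and bSCs and dSCs differed by 0.70 ± 0.23 (adjusted p = 0.0933). The call in dSCs was lost without any 1 of the 8 libraries (adjusted p 0.0605 to 0.158) and with the block (0.82, adjusted p = 0.204). Eno2, the neuronal enolase, was at 23.9 to 35.0 CPM in iSCs, 0.134 to 27.3 in dSCs and 2.48 to 12 in bSCs. All bSC libraries were below all iSC libraries, but the difference of -2.003 ± 0.98 was not called (adjusted p = 0.202). Eno1, the widely used enolase, was listed at no more than 5 counts in any library. Of all 32-base stretches of its exons in the mm9 genome, 25.6% occur elsewhere too; this share was 93.6% for Pgam1, 72.5% for Pgk1, 53.3% for Gapdh, 31.2% for Ldha and 39.4% for Ldhb, and only reads aligned to 1 place were counted. Exons of 10 members, Slc2a1, Hif1a, Ndrg1, Slc16a3 and Car9 among them, overlap a gene on the other strand, and without strand information such reads cannot be told apart.

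The lactate dehydrogenase subunits moved in opposite directions in bSCs. Ldha (chr7:54096845-54110997), whose subunit dominates in muscle and favours lactate production, was at 267, 219, 281 and 339 CPM in iSCs, 349, 562, 497 and 486 in dSCs and 809, 739, 849.5 and 1092 in bSCs. No group overlapped another. Ldha rose by 1.66 ± 0.23 from iSCs to bSCs (adjusted p = 0.000611) and exceeded dSCs in bSCs by 0.88 ± 0.23 (adjusted p = 0.0401), while its difference between dSCs and iSCs was 0.78 ± 0.23 (adjusted p = 0.0686). The call between bSCs and dSCs was lost without any 1 of the 8 libraries (adjusted p 0.0536 to 0.104) and with the block (0.87, adjusted p = 0.0958). Ldhb (chr6:142438769-142456477), the heart-type subunit, was at 949, 1083, 774 and 484 CPM in iSCs, 268, 259, 319 and 152 in dSCs and 88.8, 144, 246 and 122 in bSCs. All injured libraries were below all iSC libraries. Ldhb fell by 1.72 ± 0.36 in dSCs (adjusted p = 0.0145) and by 2.45 ± 0.36 in bSCs (adjusted p = 0.000845), and the call in dSCs was lost without pool 2 of iSCs or pool 5 of dSCs (highest adjusted p 0.0519).

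Because both subunits form 1 enzyme, their ratio was computed per kilobase of exon. In the order of the pools, the Ldha to Ldhb ratio was 0.148, 0.106, 0.191 and 0.369 in iSCs, 0.685, 1.14, 0.820 and 1.68 in dSCs and 4.79, 2.71, 1.82 and 4.70 in bSCs. The 3 groups did not overlap. In the single-nerve libraries the median ratio was 1.05 in iSCs (0.414 to 1.14), 4.58, 3.89 and 3.03 in dSCs at days 1, 2 and 4, 0.906 and 0.981 at days 6 and 8 and 2.17 at day 10, and 3.42, 6.93, 4.01 and 2.08 in bSCs at days 4, 6, 8 and 10. The dSC medians of days 6 and 8 were thus within the iSC range, and the iSC ratios differed between the experiments with no overlap. Libraries of some groups spread widely, at 0.788 to 5.02 in dSCs at day 10 and at 1.58 to 37.1 and 0.854 to 6.16 in bSCs at days 4 and 8. The lowest libraries of dSCs at day 10 and of bSCs at day 8 were within the iSC range.

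**Figure D2:**
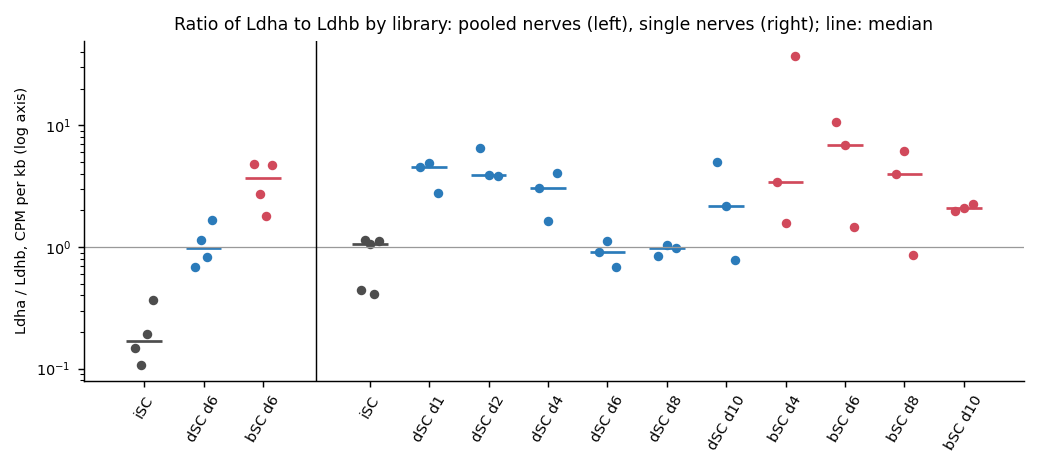
Ratio of Ldha to Ldhb (CPM per kilobase of exon, log axis) in every pooled and single-nerve library by group; points are libraries and lines are medians. In the pooled experiment the medians rise from 0.17 in iSCs to 0.98 in dSCs and 3.70 in bSCs, with no overlap.

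Of the lactate carriers, Slc16a1 fell in bSCs. Slc16a1 (chr3:104442591-104462385), which encodes the monocarboxylate transporter MCT1, was at 184, 119, 165 and 174 CPM in iSCs, 109, 237, 116 and 83.9 in dSCs and 82.0, 48.9, 24.9 and 56.9 in bSCs. The bSC libraries were below all others. It fell by 1.59 ± 0.38 in bSCs relative to iSCs (adjusted p = 0.0141; with the block -1.49, adjusted p = 0.075), and the difference between bSCs and dSCs was -1.36 ± 0.38 (adjusted p = 0.055). Slc16a3, encoding the lactate exporter MCT4, was at 5.06, 1.52, 4.24 and 3.06 CPM in iSCs, 12.7, 16, 5.83 and 7.67 in dSCs and 35.4, 17, 0 and 15.3 in bSCs. All dSC libraries exceeded all iSC libraries, whereas pool 3 of bSCs had no count, and no contrast of Slc16a3 passed the test (adjusted p = 0.629 for dSCs and 0.256 for bSCs against iSCs). Pdk1, the kinase that keeps pyruvate out of mitochondria, was at 26.9, 17.3, 17.6 and 6.45 CPM in iSCs, 51.4, 21.4, 21.2 and 4.99 in dSCs and 19.8, 1.02, 0.172 and 5.50 in bSCs, with overlap between all groups.

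**Figure D3:**
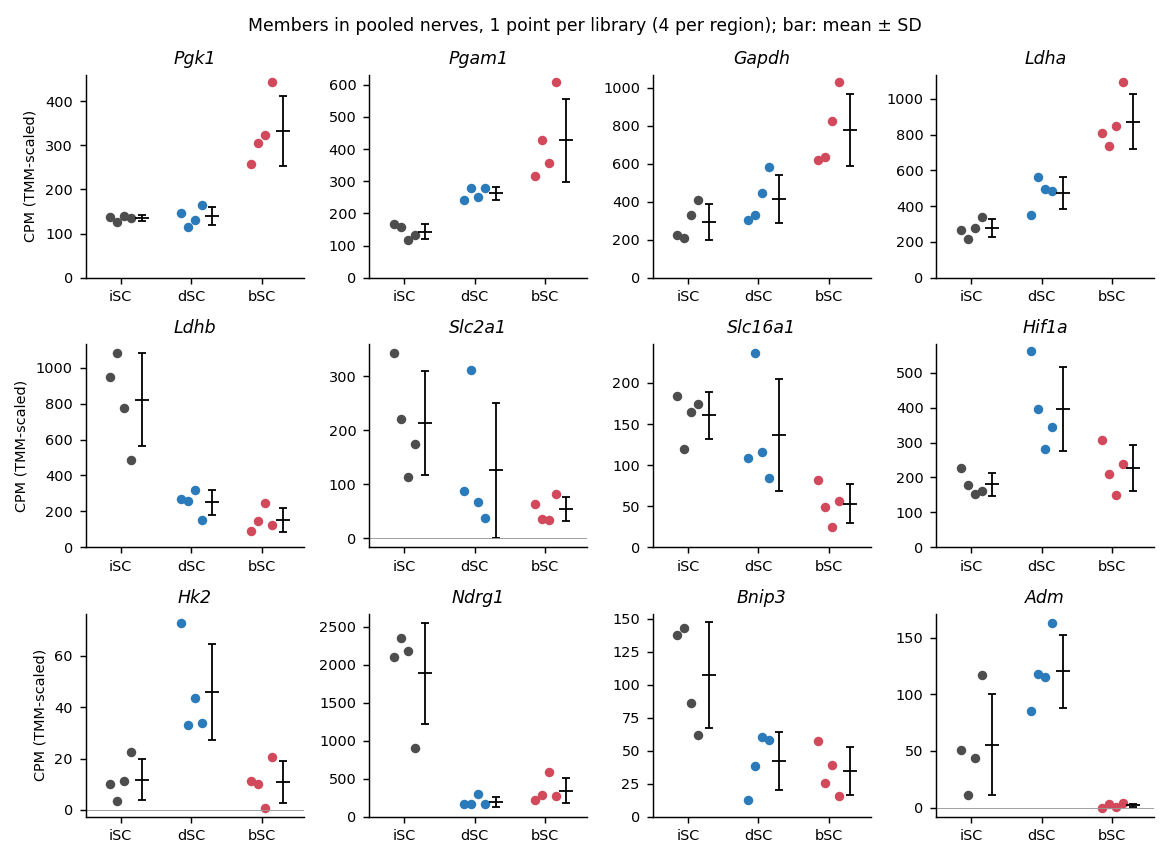
CPM of members described with every library's value, in the pooled experiment (1 panel per gene); points are the 4 libraries of each group, and the bar beside them is their mean ± SD. Pgk1, Ldha and Gapdh are highest in all bSC libraries and Adm is under 4 CPM there.

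Promoter sequences of the genes that rose in bSCs (Ldha, Pgk1, Pgam1, Gapdh) and of 2 that fell (Ldhb, Adm) are shown because HIF is known to bind the core letters ACGTG or GCGTG. They run from 250 bases before to 50 after the start of transcription, 5′ to 3′ on the gene's strand, from RefSeq for GRCm38.p6, and each has 1 exact match on its chromosome in mm9, the build of the counts: chr7:54100924-54101223 (plus strand) for Ldha, chrX:103382189-103382488 (plus) for Pgk1, chr19:41986111-41986410 (plus) for Pgam1, chr6:125115742-125116041 (minus) for Gapdh, chr6:142456428-142456727 (minus) for Ldhb and chr7:117770921-117771220 (plus) for Adm. Capitals mark ACGTG or GCGTG on either strand (CACGT and CACGC when read on the strand shown), and CACGTG holds ACGTG on both strands.
Ldha: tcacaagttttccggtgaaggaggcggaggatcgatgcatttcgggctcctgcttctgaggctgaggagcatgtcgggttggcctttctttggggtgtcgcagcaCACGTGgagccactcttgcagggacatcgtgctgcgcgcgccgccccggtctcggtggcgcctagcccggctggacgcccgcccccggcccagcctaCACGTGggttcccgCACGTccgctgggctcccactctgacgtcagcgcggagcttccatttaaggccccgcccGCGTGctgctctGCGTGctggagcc
Pgk1: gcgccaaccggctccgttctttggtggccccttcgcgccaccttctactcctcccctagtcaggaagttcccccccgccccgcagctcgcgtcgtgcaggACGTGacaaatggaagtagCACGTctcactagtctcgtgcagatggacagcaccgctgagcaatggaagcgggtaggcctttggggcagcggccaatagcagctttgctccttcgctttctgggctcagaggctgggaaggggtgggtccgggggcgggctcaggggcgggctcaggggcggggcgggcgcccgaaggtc
Pgam1: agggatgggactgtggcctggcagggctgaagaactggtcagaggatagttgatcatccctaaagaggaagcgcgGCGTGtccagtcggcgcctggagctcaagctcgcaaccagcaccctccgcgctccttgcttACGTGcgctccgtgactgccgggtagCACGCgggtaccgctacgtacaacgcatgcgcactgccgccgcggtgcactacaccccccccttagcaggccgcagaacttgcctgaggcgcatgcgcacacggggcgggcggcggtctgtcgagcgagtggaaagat
Gapdh: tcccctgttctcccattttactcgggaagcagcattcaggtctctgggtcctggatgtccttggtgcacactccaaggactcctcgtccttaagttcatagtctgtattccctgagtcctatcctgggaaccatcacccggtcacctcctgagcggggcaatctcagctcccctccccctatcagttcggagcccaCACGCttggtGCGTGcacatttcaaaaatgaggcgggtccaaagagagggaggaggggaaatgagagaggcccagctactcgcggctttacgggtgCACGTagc
Ldhb: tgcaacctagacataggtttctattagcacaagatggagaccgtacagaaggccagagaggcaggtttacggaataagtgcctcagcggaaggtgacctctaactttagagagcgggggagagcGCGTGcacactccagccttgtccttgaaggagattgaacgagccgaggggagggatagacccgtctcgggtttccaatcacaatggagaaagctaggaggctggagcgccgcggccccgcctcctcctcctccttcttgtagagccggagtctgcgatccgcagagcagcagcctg
Adm: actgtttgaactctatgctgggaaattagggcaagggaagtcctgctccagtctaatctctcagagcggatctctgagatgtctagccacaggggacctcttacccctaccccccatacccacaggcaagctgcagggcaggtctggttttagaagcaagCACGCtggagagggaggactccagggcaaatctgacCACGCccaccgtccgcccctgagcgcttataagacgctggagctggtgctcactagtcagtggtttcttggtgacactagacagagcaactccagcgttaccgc

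Ldha held the largest number of ACGTG matches among these 6 (5 over both strands, with 2 of GCGTG). Pgk1 held 2 of ACGTG and none of GCGTG, Pgam1 and Gapdh 1 and 2, Ldhb none and 1, and Adm none and 2. Among the 34 members with a promoter in the table (Slc2a3, Epas1, Bnip3l and Ndrg1 had no entry), 28 (82.4%) held either word, against 43.8% of 27025 promoters. The median GC content was 64.8% in members and 52.7% over all promoters. Either word was present in 4 of 4 promoters of members that rose in bSCs against iSCs, in 6 of 6 of those that fell and in 16 of 22 of those tested and not called. ACGTG itself was present in 4 of 4, 4 of 6 and 12 of 22. Ldhb and Adm, shown here without ACGTG, thus do not stand for most of the members that fell. A match is a description of letters and not of binding.

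Of the HIF genes, Hif1a rose in dSCs. Hif1a (chr12:75002362-75048517), encoding the HIF-1 alpha subunit, was at 227, 178, 152 and 162 CPM in iSCs, 561, 396, 282 and 344 in dSCs and 309, 210.3, 149 and 239 in bSCs. All dSC libraries were above all iSC libraries, while bSCs overlapped both groups. Hif1a rose by 1.14 ± 0.28 in dSCs relative to iSCs (adjusted p = 0.0317), and bSCs differed from iSCs by 0.33 ± 0.27 (adjusted p = 0.486) and from dSCs by -0.80 ± 0.28 (adjusted p = 0.103). The call in dSCs held without pool 3 of dSCs and was lost without any other of the 8 libraries (highest adjusted p 0.118). Macrophage markers, given above, were also highest in dSCs. Epas1, encoding HIF-2 alpha, ranged from 7.45 to 113 CPM and Egln1, the main HIF prolyl hydroxylase, from 9.44 to 59.2, both with overlap between all groups. Egln3 had counts in 2 of the 12 libraries.

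Of the 11 hypoxia targets, Ndrg1 fell in dSCs, and Ndrg1, Adm and Bnip3 fell in bSCs, relative to iSCs. Ndrg1 (chr15:66760883-66801202), a stress-responsive gene also needed to maintain myelin, was at 2111, 2355, 2188 and 902 CPM in iSCs, 166, 162, 297 and 167 in dSCs and 222, 283, 586 and 271 in bSCs. Every injured library was below every iSC library. Ndrg1 fell by 3.25 ± 0.40 in dSCs (adjusted p = 0.000716) and fell by 2.47 ± 0.39 in bSCs (adjusted p = 0.00122), and both calls held whichever library was left out. Within groups the SC marker sum moved with it: pool 5 of iSCs was lowest for Ndrg1 and for these markers (547 CPM), and pool 3 was highest for both within dSCs (2113 CPM) and within bSCs (1236 CPM).

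Adm (chr7:117771175-117773331), encoding the vasodilator peptide adrenomedullin, showed the greatest difference between the injured regions of any tested member. Its levels were 50.4, 10.8, 43.8 and 117 CPM in iSCs, 84.8, 118, 115 and 163 in dSCs and 0, 2.78, 0.773 and 3.73 in bSCs. No bSC library reached the lowest of the others. Adm fell by 4.92 ± 1.01 in bSCs relative to iSCs (adjusted p = 0.00587) and was lower in bSCs than in dSCs by 6.04 ± 1.07 on the log2 scale (adjusted p = 0.00917). Both calls held in all alternatives, including the block and each left-out library. In dSCs it differed from iSCs by 1.12 ± 0.86 (adjusted p = 0.639).

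Bnip3, a mediator of mitochondrial removal, was at 138, 143, 86.5 and 61.6 CPM in iSCs, 12.5, 38.4, 60.3 and 58.1 in dSCs and 57.5, 25.6, 39.3 and 15.6 in bSCs. Both injured groups lay below all iSC libraries. Bnip3 fell by 1.64 ± 0.51 in bSCs (adjusted p = 0.048; with the block -1.87, adjusted p = 0.125), and dSCs differed from iSCs by -1.34 ± 0.51 (adjusted p = 0.177). Of the 8 fits that leave out 1 library, the call held without pool 5 of iSCs and without pool 1 of bSCs, and in the other 6 the adjusted p reached up to 0.13. Of its exon stretches, 56.9% occur elsewhere in the genome.

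The classical HIF targets Vegfa and Car9 were low and uneven between libraries, some of which had no count. Vegfa, encoding an angiogenic growth factor, was at 4.28, 0.661, 2.57 and 4.03 CPM in iSCs, 9.55, 0, 1.25 and 8.72 in dSCs and 5.06, 3.80, 0 and 0 in bSCs. Car9, the carbonic anhydrase used as a marker of hypoxia, had no count in any iSC library, and was at 0, 18.9, 2.80 and 0.149 CPM in dSCs and 0, 7.23, 0 and 3.31 in bSCs. The mean of Car9 was at least 22.6-fold higher in dSCs and at least 10.9-fold higher in bSCs than the level of 3 counts per library in iSCs, but 1 dSC and 2 bSC libraries were also at 0 and neither difference was called (adjusted p = 0.157 and 0.105). The remaining targets, Bnip3l, Ddit4, Ankrd37, P4ha1, P4ha2 and Higd1a, had no call in any pooled contrast. Their differences between bSCs and iSCs ran from -2.13 for Ankrd37 to 1.09 for P4ha2, a collagen prolyl hydroxylase at 27.3 to 104 CPM in iSCs and 55.8 to 195 in bSCs.

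**Figure D4:**
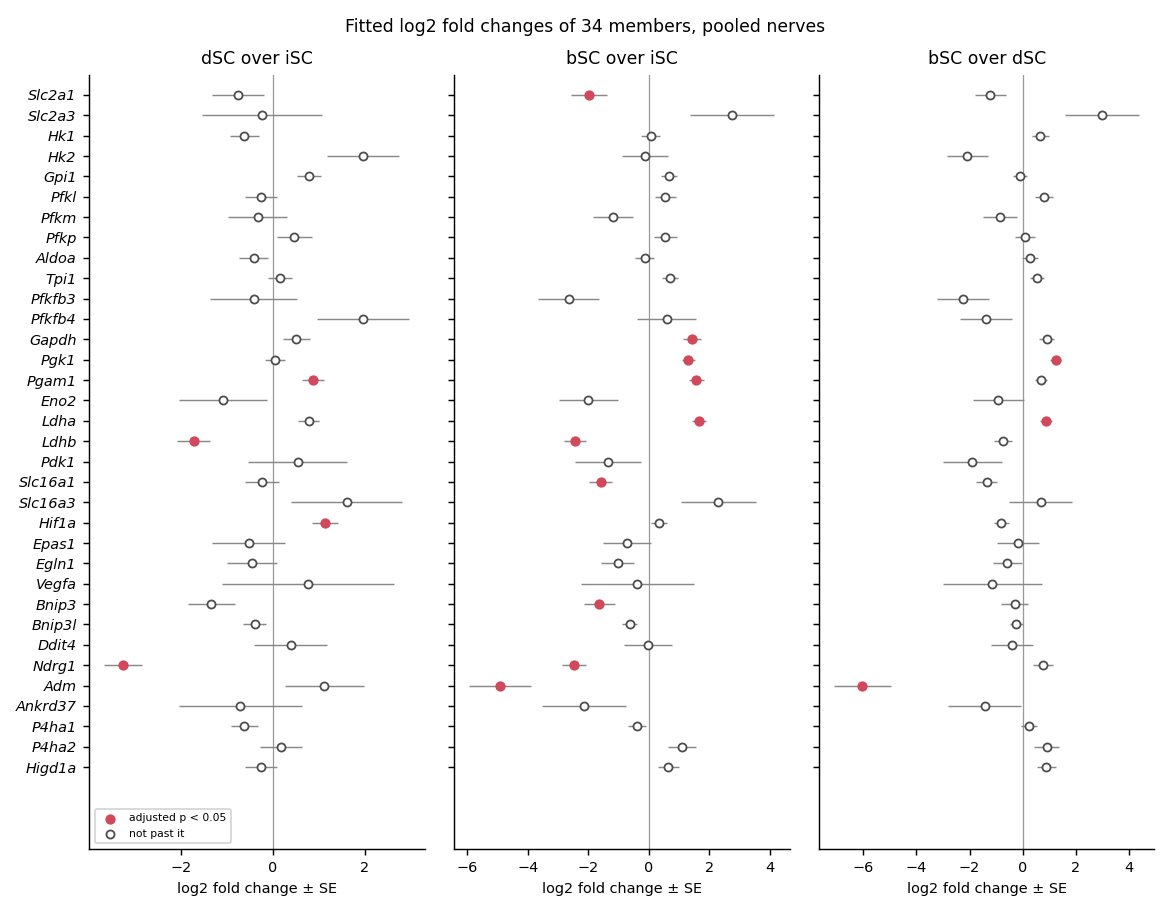
Log2 fold change (bars, standard error) of 34 members in the 3 pooled contrasts, ordered by role; filled points passed adjusted p under 0.05, and Eno1, Egln3, Aldoc and Car9 are left out because they were not tested or had a group at 0. Adm (-6.04 in bSCs against dSCs) and Ndrg1 (-3.25 in dSCs against iSCs) lie lowest among the called.

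Per kilobase of exon, the leading members changed place, within the limit that only uniquely aligned reads were counted, which differs between genes as given above, and that Eno1 is unmeasured. In iSCs, Ldhb led with 524 ± 165 CPM per kilobase (SD, n = 4), followed by Aldoa with 299 ± 43.3 and Ndrg1 with 287 ± 101, neighbours that did not differ beyond their spread, and then by Gapdh with 130.1 ± 41.1 and Ldha with 92.6 ± 16.6. In dSCs, Aldoa (224 ± 80.4), Gapdh (184 ± 56.6), Ldhb (159 ± 44.6) and Ldha (159 ± 29.97) lay within each other's spread. In bSCs, Gapdh (345 ± 84.9), Ldha (293 ± 51.5), Aldoa (272 ± 89.6) and Pgam1 (233 ± 70.4) led and Ldhb was at 95.7 ± 43.2.

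In the single-nerve experiment, 23 members passed the stricter filter (100 counts in 85% of the 35 libraries), out of 7171 genes. Relative to iSCs, dSCs had 3 members called at days 1 and 2 (13%, against 1.42% of all genes), 3 at days 4 and 6 (13%, against 7.91%) and 3 at days 8 and 10 (13%, against 2.4%). All were lower, a direction called for 0.586%, 4.53% and 1.2% of all genes, and none was higher, against 0.837%, 3.37% and 1.2%. The median members were at -0.06, -0.55 and -0.41, against -0.03, -0.09 and -0.05 over all genes. In bSCs, the mean of days 4 to 10 had 7 members called (30.4%, against 10.4%), 1 higher (against 3.54%) and 6 lower (against 6.85%). Leaving out the 4 libraries rich in Rn45s, chosen after the data were seen, changed these counts to 0, 6, 2 and 5. Over all genes, 73, 591, 168 and 646 of 7746 were called there. Of the 6 members at days 4 and 6, 2 were higher, Hk2 (2.55 ± 0.73, adjusted p = 0.0321) and Pfkfb4 (2.97 ± 0.84, adjusted p = 0.0296). With all 35 libraries these 2 had not passed the stricter filter. Without the Rn45s-rich libraries 26 members passed it, and Epas1 was among those called lower in dSCs at days 4 and 6 (-2.63 ± 0.55, adjusted p = 0.00395). In the same fit, Hk2 in bSCs differed by 1.90 ± 0.67 from iSCs (adjusted p = 0.0801) and by -0.20 ± 0.37 from dSCs (adjusted p = 0.851).

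In the single nerves, Slc2a1 was lower after injury at every time. It was at 1288, 556, 1363, 720.2 and 495 CPM in iSC replicates 0, 1, 3, 4 and 5, and at 235, 319 and 349.7 in dSCs at day 1, 147, 262 and 259 at day 2, 109.7, 68.9 and 106 at day 4, 131, 67.0 and 195 at day 6, 128, 338 and 193 at day 8 and 54.7, 221 and 278 at day 10. In bSCs it was at 67.2 to 134 CPM at day 4, 36.7 to 92.3 at day 6, 26.1 to 111 at day 8 and 24.2 to 55.6 at day 10. No injured library reached an iSC library of this experiment. The iSC levels of the 2 experiments did not overlap, pooled iSCs being at 114 to 342 CPM, and pooled dSCs at day 6 were not called. Slc2a1 fell by 1.77 ± 0.42 (adjusted p = 0.0256), 2.99 ± 0.44 (adjusted p = 8.92e-05) and 2.13 ± 0.43 (adjusted p = 0.00419) in early, middle and late dSCs and by 3.63 ± 0.35 in bSCs (adjusted p = 1.33e-07). The early call was lost without the Rn45s-rich libraries (-1.59, adjusted p = 0.166) and without any 1 of 7 libraries (iSC replicates 0 and 3, all of day 1 and replicates 0 and 4 of day 2, highest adjusted p 0.074), and the others held. Endothelial markers, summed over 7 genes, were also higher in these iSCs (1551 to 3909 CPM), with overlap. In dSCs they were at 237 to 1648 CPM and in bSCs at 231 to 2618. The SC marker sum of these iSCs was 112 to 348 CPM, as given above. Endothelial cells are known for high Slc2a1, and the part of endothelial cells was not tested.

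Ndrg1 was at 1967, 1031, 1265, 1334 and 532 CPM in iSCs, 454 to 742 in dSCs at day 1, 112 to 255 at day 2, 115 to 156 at day 4, 176 to 448 at day 6, 277 to 436 at day 8 and 287 to 403 at day 10. Of the dSC libraries, 1 of day 1 lay within the iSC range and those of later days lay below it. The bSC libraries of days 4 to 10 overlapped the iSC range. Ndrg1 fell by 1.89 ± 0.37, 2.58 ± 0.37 and 1.87 ± 0.37 in early, middle and late dSCs (adjusted p = 0.00769, 8.67e-05 and 0.00347) and by 2.28 ± 0.30 in bSCs (adjusted p = 8.41e-06). Only the early call was lost without the Rn45s-rich libraries (-1.42, adjusted p = 0.111), and each held when any 1 library was left out.

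Slc16a1 was at 599, 492, 863, 352 and 108 CPM in iSCs, 59.2 to 319 in dSCs and 48.3 to 239.7 in bSCs. iSC replicate 5 lay within the injured range. Slc16a1 fell by 2.17 ± 0.44 at days 4 and 6 (adjusted p = 0.00294), by 1.66 ± 0.44 at days 8 and 10 (adjusted p = 0.0361) and by 2.11 ± 0.36 in bSCs (adjusted p = 0.000259). The call at days 8 and 10 was lost without the Rn45s-rich libraries (-1.51, adjusted p = 0.0961) and without any 1 of 9 libraries (iSC replicates 0, 1 and 3 and each dSC library of these days, highest adjusted p 0.106).

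Ldhb was at 1315, 539.9, 303, 410.1 and 212 CPM in iSCs, with the highest values in the Rn45s-rich replicates 0 and 1. In dSCs it was at 90.5 to 224 on day 1, 121 to 166 on day 2, 99.4 to 184 on day 4, 262 to 397 on day 6, 284 to 359.5 on day 8 and 91.1 to 364 on day 10, and in bSCs at 27.5 to 245 over all days. Ldhb fell by 1.82 ± 0.47 at days 1 and 2 (adjusted p = 0.0402) and by 2.07 ± 0.38 in bSCs (adjusted p = 0.000654). Without the Rn45s-rich libraries both calls were lost (-1.10 and -1.20, adjusted p = 0.394 and 0.0639). The early call was also lost without any 1 of 8 libraries, namely iSC replicates 0 and 4 and every dSC library of days 1 and 2 (highest adjusted p 0.222).

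Gapdh was at 249, 158, 251, 236 and 238 CPM in iSCs and rose by 0.95 ± 0.29 in bSCs (adjusted p = 0.0306), where it was at 551 to 1069 at day 4, 176 to 736 at day 6, 207 to 456 at day 8 and 322 to 460.4 at day 10. The call was lost without the Rn45s-rich libraries (0.89, adjusted p = 0.115) and without any 1 of 6 libraries (iSC replicates 0, 1 and 4, bSC day 4 replicate 2, day 6 replicate 0 and day 8 replicate 1, highest adjusted p 0.102). In dSCs Gapdh was at 415 to 584 CPM at day 1, 382 to 558 at day 2, 264 to 504 at day 4 and 277 to 292 at day 6. These libraries and those of day 10 (258 to 338) lay above all iSC libraries, and those of day 8 (181 to 280) overlapped them. The differences from iSCs were 1.14 at days 1 and 2 (adjusted p = 0.0614) and 0.53 at days 4 and 6 (adjusted p = 0.325). By DESeq2 the early difference was called. Ldha differed by 0.20 ± 0.33 between bSCs and iSCs (adjusted p = 0.765), and by 0.90 ± 0.34 without the Rn45s-rich libraries (adjusted p = 0.0977). It was at 1096, 1166, 604, 322 and 448 CPM in iSCs, highest in the Rn45s-rich replicates 0 and 1, and 397 to 1937 in bSCs, and within dSCs was highest in the Rn45s-rich libraries (2104 at day 1 and 2056 at day 2). Pgk1 and Pgam1 differed by 0.28 ± 0.27 and 0.56 ± 0.24 between bSCs and iSCs (adjusted p = 0.571 and 0.136), and by 0.81 ± 0.28 and 0.65 ± 0.28 without the Rn45s-rich libraries (adjusted p = 0.0734 and 0.157).

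Adm was at 34.4, 80.5, 31.0, 45.8 and 219.6 CPM in iSCs and 30.4 to 45.7, 9.88 to 22.6, 17.1 to 108 and 0 to 10.0 in bSCs at days 4, 6, 8 and 10. It fell by 2.08 ± 0.57 in bSCs (adjusted p = 0.0166), a call that was lost without iSC replicate 5 (-1.27, adjusted p = 0.172). In dSCs it was at 18.6 to 149.8 CPM over all days and was not called. Bnip3l, a relative of Bnip3, fell by 1.12 ± 0.25 in bSCs (adjusted p = 0.00459) from 698, 568, 226, 252 and 188 CPM in iSCs to 117 to 231, and lost its call without iSC replicate 0 (-0.76, adjusted p = 0.0628) and without the Rn45s-rich libraries (-0.29, adjusted p = 0.392). Hif1a, called in pooled dSCs, differed by 0.55 ± 0.41, 0.80 ± 0.41 and 0.92 ± 0.42 in early, middle and late single-nerve dSCs (adjusted p = 0.659, 0.246 and 0.266), and by 0.47, 0.32 and 0.45 without the Rn45s-rich libraries (adjusted p = 0.644, 0.618 and 0.681). Epas1 differed by -1.61 ± 0.64 between bSCs and iSCs (adjusted p = 0.107), and by -2.29 ± 0.46 without the Rn45s-rich libraries (adjusted p = 0.00226).

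**Figure D5:**
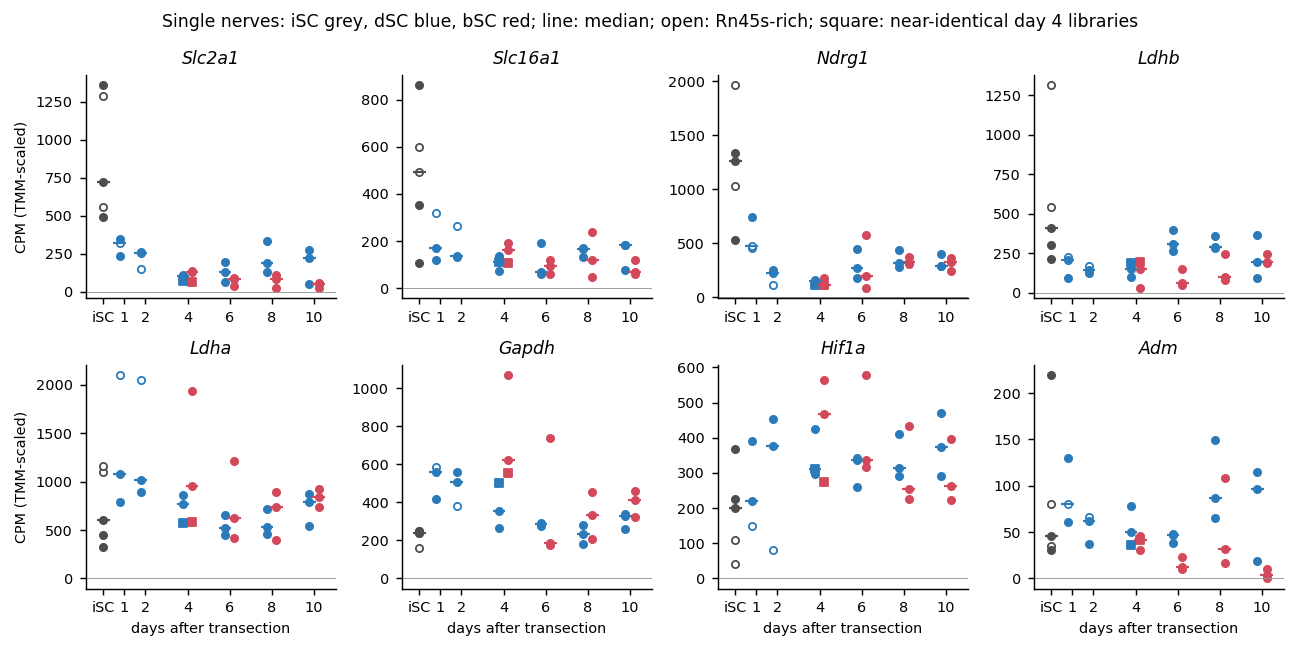
CPM of selected members in single-nerve libraries of iSCs (grey) and of dSCs (blue) and bSCs (red) by day after transection; points are libraries (open where rich in Rn45s, squares for the near-identical day 4 libraries) and lines are medians. Slc2a1 is below all 5 iSC libraries at every day in both regions, and Adm in bSCs is at 0 to 10.0 CPM at day 10.

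Between the bSCs and dSCs of single nerves, averaged over days 4 to 10, edgeR called none of the 23 members (8 at an unadjusted p under 0.05, 2 called by DESeq2, 1 called by edgeR without replicate 2 of bSC day 10), against 0.112% of all genes, and the median member was at 0.17 against 0.02. The smallest p-values were those of Slc2a1 (-1.07 ± 0.28, adjusted p = 0.195) and Adm (-1.76 ± 0.48, adjusted p = 0.204). The labels tie 10 bSC libraries to a dSC library of the same animal without contradiction, and bSC day 10 replicate 0, whose labels name different animals, was left unpaired. With the animal as a block, edgeR called 3 members, all lower in bSCs, against 6.44% of all genes. Slc2a1 differed by -1.49 ± 0.21 (adjusted p = 0.00475), Adm by -2.07 ± 0.31 (adjusted p = 0.00548) and Ldhb by -1.24 ± 0.30 (adjusted p = 0.0302). Without the near-identical pair of day 4, a fit added after seeing the data, the same 3 members were called and P4ha2 was higher in bSCs by 1.13 ± 0.29 (adjusted p = 0.0478), against 5.35% of all genes. No member was called for a difference between the regions that varied between days by edgeR (2 at an unadjusted p under 0.05, none by DESeq2), against 0% of all genes. Late dSCs (days 8 and 10) against early dSCs (days 1 and 2) had no member called by edgeR (6 at an unadjusted p under 0.05, 2 by DESeq2), against 0.628% of all genes, with a median of -0.31 against 0.02. Among these, Gapdh, Pgk1, Pgam1 and Ldha were at -0.90 ± 0.30, -0.72 ± 0.29, -0.56 ± 0.25 and -1.04 ± 0.35 (adjusted p = 0.11, 0.182, 0.245 and 0.12), and Ldha was at -0.58 ± 0.31 without the Rn45s-rich libraries (adjusted p = 0.724).

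Other genes of the same pathways, from lists of 107 genes that are no members, were read in the pooled libraries. Their counts stand against the shares of all genes given above, 2.63% higher and 2.69% lower in dSCs and 7.24% and 7.46% in bSCs against iSCs, and 2.31% and 3.11% in bSCs against dSCs. Among 16 tested further genes of glycolysis, 1 was called higher and 1 lower in bSCs against iSCs, a total near the 14.7% of all genes called. Pkm, the pyruvate kinase that ends glycolysis, rose by 1.31 in bSCs against iSCs (adjusted p = 0.00422) and by 1.27 against dSCs (adjusted p = 0.0149), with 347 to 374 CPM in iSCs, 248 to 464 in dSCs and 676 to 1218 in bSCs. Ldhd, a mitochondrial D-lactate dehydrogenase, was at 0.605 to 28.3 CPM in iSCs and 3.13 to 14.5 in dSCs and had no count in bSCs, at least 51.5-fold and 35.3-fold lower (adjusted p = 0.00301 and 0.0117). Among 36 further HIF targets, 4 rose and none fell in dSCs against iSCs, 6 rose and 3 fell in bSCs against iSCs, and 2 were higher and 1 lower in bSCs than in dSCs, with medians of 0.45, 0.79 and 0.28, against -0.02, -0.16 and -0.07 over all genes. Of these, Loxl2, a collagen cross-linking enzyme, rose by 2.32 in dSCs and 2.76 in bSCs (adjusted p = 0.0102 and 0.00163), and Hmox1, haem oxygenase, by 1.68 and 1.71 (adjusted p = 0.0281 and 0.012). Mif, a cytokine, rose by 1.63 in bSCs against iSCs (adjusted p = 0.00202) and 1.12 against dSCs (adjusted p = 0.0335), while Rora, a nuclear receptor, fell by 2.55 and 2.38 (adjusted p = 0.00994 and 0.0313). Anxa2, a membrane-binding annexin, rose by 1.60 in bSCs against iSCs (adjusted p = 0.00229) and 1.02 against dSCs (adjusted p = 0.0496), and Stc2, a secreted glycoprotein without a count in iSCs, had a mean at least 42.2-fold higher in dSCs and 4.25-fold higher in bSCs (adjusted p = 0.032 and 0.0471).

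Of 17 further genes of pyruvate and lactate handling, 1 fell in dSCs and 3 in bSCs against iSCs, where 7.46% of all genes fell. Pdp2, a phosphatase that activates pyruvate dehydrogenase, fell by 1.78 in dSCs and 1.92 in bSCs (adjusted p = 0.0244 and 0.00727). Of 7 genes of the pentose phosphate pathway, 1 rose in dSCs and 1 rose and 1 fell in bSCs. Pgls, the lactonase of that pathway, rose by 1.23 in dSCs and 1.65 in bSCs (adjusted p = 0.0421 and 0.00427). Of 9 genes of glycogen metabolism, 1 fell in dSCs, and of 15 HIF regulators, 2 rose and 1 fell in bSCs against iSCs. Over all genes, 5.32% were called in dSCs and 14.7% in bSCs against iSCs.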

How the data were processed

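RNA of tdTomato+ SCs was amplified by Smart-seq2, which keeps neither strand nor molecular identifiers, so that counts include PCR copies, and was sequenced on an Illumina HiSeq 2500. The authors aligned reads to mm9 with TopHat2 2.0.11 and counted uniquely aligned reads per gene with HTSeq (tools and builds per the submitters' processing notes), and the deposited files hold these raw counts per gene for each library. Lane files of a library were summed, the 92 spike-in rows were set aside, and rows without a gene (53.8 to 60.5% of reads in pooled and 52.5 to 59.6% in single-nerve libraries) were left out of library sizes. Rat files of the series were not used here.

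Counts were tested with edgeR 4.0.16 (TMM, quasi-likelihood) in R 4.3.3, with 1 fit of all groups per experiment. Pooled genes passed filterByExpr. Single-nerve genes needed 100 counts in 85% of libraries. Calls were made at a Benjamini-Hochberg adjusted p under 0.05, and the scripts were tested on simulated data. There, the pooled fit of bSCs against dSCs recovered 0 of 100 genes changed 2-fold and 14 of 100 changed 4-fold. The single-nerve fit of bSCs against iSCs recovered 11 and 60 of 100. A member that was not called can therefore still differ between groups. Alternatives were DESeq2 1.42.0, other filters, fits of only the groups compared, replicate blocks, a term for the number of lane files, leaving out each library, and fits without the Rn45s-rich or the near-identical libraries that were added after seeing the data. Tables were made with Python 3.11.15.

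The labels give pool numbers and animals that link regions. Deviations from group means correlated at -0.0143 on average within a pool and 0.0045 between pools, and at 0.156 within an animal and -0.0008 between animals. Values in every library were given for members called in a pooled contrast and for 10 further members of a set list where detected, and at most 10 other pathway genes, those called in the most pooled contrasts, were named. The members and lists were chosen with earlier results of these data known. Some genes of the SC marker list are not reported here.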

Additional observations from a re-analysis of the deposited data

Results flagged for a closer look

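In groups of 4 or 5 libraries, 73 groups of 19 members were screened for a library far from the rest of its group, and 8 were found. Chance alone marks about 1 in 20 groups. Ndrg1 accounted for 3 of the 8, 1 in each pooled group: pool 5 of iSCs was at 902 CPM (the others at 2111 to 2355), pool 3 of dSCs at 297 (162 to 167) and pool 3 of bSCs at 586 (222 to 283). These are the libraries named in the report for the SC marker sum, and the part of those markers was not tested. Car9 was at 18.9 CPM in pool 2 of dSCs (0 to 2.80 in the others) and at 0.0524 CPM, 1 count, in replicate 4 of single-nerve iSCs (0 in the others). In the single-nerve iSCs, Adm was at 219.6 CPM in replicate 5 (31.0 to 80.5), Gapdh at 158 CPM in the Rn45s-rich replicate 1 (236 to 251), and Vegfa at 7.84 CPM in replicate 3 (0 to 1.99).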

How the results depend on the processing

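By DESeq2, 8 members were called in pooled dSCs against iSCs and 8 between pooled bSCs and dSCs, and in the single nerves 5 in dSCs at days 1 and 2, 5 at days 4 and 6, 2 in late against early dSCs and 2 between bSCs and dSCs. Over all genes, DESeq2 called 1393 and 1939 of 13751 in these pooled contrasts. In these single-nerve contrasts it called 285, 964, 465 and 64 of 7171. With the pool number as a block, 3 members were called in pooled dSCs and 7 in pooled bSCs against iSCs, and the calls not given as lost in the report held. Over all genes, this block gave 287 and 968 of 13751. The animal as a block gave 3 between single-nerve bSCs and dSCs, or 4 without the 2 near-identical day 4 libraries. Of 7171 genes, 462 and 384 were called in these 2 fits. The replicate number of single nerves links no animals between days, and as a block it gave 8 members at days 4 and 6 and 2 in late against early dSCs. The same block gave 932 and 267 of 7171 genes. Without a filter on low counts the early single-nerve dSCs had 1 call and the middle ones 5, and with edgeR's filter the middle ones had 5. In each of these 2 settings 2 of the middle calls were higher, where 488 of 18452 and 536 of 15519 genes were called. The early call without a filter stood beside 97 of 18452 genes. A fit of only the groups compared gave 0 early and 1 late, where 6 of 5336 and 66 of 6343 genes were called. The early and middle counts without the 4 Rn45s-rich libraries were 0 and 6, beside 73 and 591 of 7746 genes. Without the 2 near-identical day 4 libraries no named member lost its call.

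Leaving out each library in turn gave 1 to 5 calls in pooled dSCs and 9 to 12 in pooled bSCs against iSCs, 2 to 3 between them, 1 to 4, 3 to 5 and 2 to 3 in early, middle and late single-nerve dSCs, 0 to 0 in late against early dSCs, 5 to 9 in single-nerve bSCs, 0 to 1 between the regions and 0 to 0 for their difference between days. Of 546 fold changes of named members with 1 library left out, 471 kept their side of the threshold, 72 lost and 3 gained a call, and of 372 under other alternatives 328, 34 and 10; none reversed. The causes of these shifts were not tested. DESeq2's scaling changed group means by factors of 0.917 to 1.09. Vegfa and Car9 had pooled libraries without a count, and a count of 0 allows a level of up to 3 counts.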
